A study of Mus musculus with 12 samples.

Results

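The genes described here are 39 mouse genes of the sarcomere: actins, myosin light chains, proteins of the Z-disc, the M-band and the thin filament, and the factors that fold or turn over their products. They were taken from a list of gene names that was drawn up with earlier results of these data known, no value serving as a threshold, and all 39 were found among the 23586 genes measured. RNA came from muscle stem cells, the satellite cells of skeletal muscle, sorted as PAX3+(GFP+) or PAX3-(GFP-) from mice with a Pax3nLacZ-IRES-GFP reporter allele, which all 4 groups carried. The sorted cells were grown in medium with 20% serum and 4 ng/mL of basic FGF and transfected with 2 µg of plasmid, either pCR3-Six2, which carries the mouse Six2 coding DNA, or the empty pCR3. The 4 groups (GFP-negative or GFP-positive, each with the control or the SIX2 plasmid) held 3 libraries each. The labels do not give the age of the animals, nor whether cells of several animals were pooled or each library had its own culture. The p-values therefore cover no more than the spread among these 12 libraries, which may be technical.

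A sarcomere is the contractile unit of striated muscle. Thin filaments of actin are anchored in the Z-disc and slide past thick filaments of myosin, which are tied together at the M-band, while titin spans from the Z-disc to the M-band and nebulin runs along the thin filament. Proliferating myoblasts hold little of this machinery. When they leave the cell cycle and fuse, factors of the MyoD and MEF2 families switch its genes on together, and dedicated chaperones fold myosin and stabilise the thin filament.

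Sequencing depth, in units of 1e6 reads, ran from 12.4 to 47.3 per library, and the 3 libraries labelled GFP-positive with SIX2 were all shallow, at 12.6 to 15.5. Values are normalized counts, that is, reads divided by a size factor per library, and 1 read was worth 0.553 to 2.14 of them. Six2 RNA did not separate the plasmid labels. Its mean was 14.8 ± 10.1 (SD, n = 3) in GFP-negative control, 21.9 ± 2.37 in GFP-negative SIX2, 7.34 ± 5.24 in GFP-positive control and 19.5 ± 11.5 in GFP-positive SIX2 libraries, with limma adjusted p of 0.421 and 0.209 for the plasmid labels. Pax3 RNA did not separate the GFP labels among control libraries either, at 71.4 ± 2.79 and 72.2 ± 19.0. Neither measurement checks the labels, so the groups are called SIX2-labelled and control-labelled. Markers of differentiating muscle were abundant. Myog, the regulator of terminal myogenic differentiation, stood at 70190 to 94510 normalized counts, against 82.6 to 184.0 for Pax7, a marker of muscle stem cells.

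The sarcomere genes together took 7.23%, 7.36% and 7.50% of the reads in the GFP-negative control libraries and 6.36%, 6.20% and 5.89% in the GFP-negative SIX2-labelled ones. In the GFP-positive cells they took 8.06%, 7.77% and 8.03% with the control label and 6.56%, 6.65% and 7.25% with the SIX2 label. Within each GFP label the plasmid labels did not overlap. The 5 most abundant members (Acta1, Myl1, Mylpf, Des and Actc1) made up 64.7% to 69.9% of the summed level. In bulk RNA, fewer differentiated cells and less sarcomere RNA per cell cannot be told apart.

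The first comparison asks how the sarcomere genes differed between cells given the Six2 plasmid and cells given the empty one. Most were lower with the SIX2 label, in both sorted populations. Among GFP-negative libraries 26 of the 39 fell, 2 rose and 11 did not pass the test, where fell and rose mean an adjusted p under 0.05 in limma-trend across 14580 tested genes. Over all tested genes, 14.3% fell and 13.6% rose. Among GFP-positive libraries 20 members fell, 4 rose and 15 did not pass, against 11.2% of all tested genes that fell and 12.1% that rose. The median member difference was -0.41 on the log2 scale in the GFP-negative and -0.33 in the GFP-positive cells, while the median of all tested genes was 0.00 and -0.01. Quantile normalization moved the split of calls in GFP-negative cells to 19 lower and 4 higher. In GFP-positive cells the same scaling kept 15 of the 24 calls and ended 9.

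Abundant genes fell more often in general. Of the 32 members with a mean of at least 1000 normalized counts, 71.9% fell in GFP-negative libraries, and 53.1% in the GFP-positive ones, and of the 4312 genes at that level 25.9% and 21.9% fell. The libraries of 29 members in the GFP-negative and 22 in the GFP-positive cells were all lower with the SIX2 label, with no overlap, which held for 23.5% and 18.1% of tested genes. In 17 members every one of the 6 SIX2-labelled libraries lay below every one of the 6 control-labelled ones, against 7.83% of tested genes. Only Myoz1 had all 6 above, as did 8.76% of tested genes.

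The GFP-negative and GFP-positive comparisons share no library, but the fit of all 12 libraries gave each gene a single estimate of spread for both. Calls in the GFP-negative and GFP-positive cells are therefore not fully independent. Of the 26 members that fell in GFP-negative cells 19 also fell in GFP-positive cells, which is 73.1% of the first list and 95.0% of the second; over all tested genes the shared genes were 44.0% and 56.3% of the lists. Those 19 were Acta1, Actn2, Ckm, Des, Klhl40, Klhl41, Ldb3, Lmod2, Lmod3, Myl1, Myl2, Myl3, Myl4, Mylpf, Myom1, Myom2, Myoz2, Smyd1 and Unc45b. Actc1, Actn3, Mybph, Myl6b, Myom3, Obsl1 and Pdlim3 passed only in GFP-negative cells and Mybpc2 only in GFP-positive cells. Mybpc1 and Myoz1 rose in both, and Tmod1 and Tmod4 passed as higher only in GFP-positive cells. No member's plasmid difference passed the test of a difference between the GFP labels, so passing in a single population does not set a member apart.

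**Figure D1:**
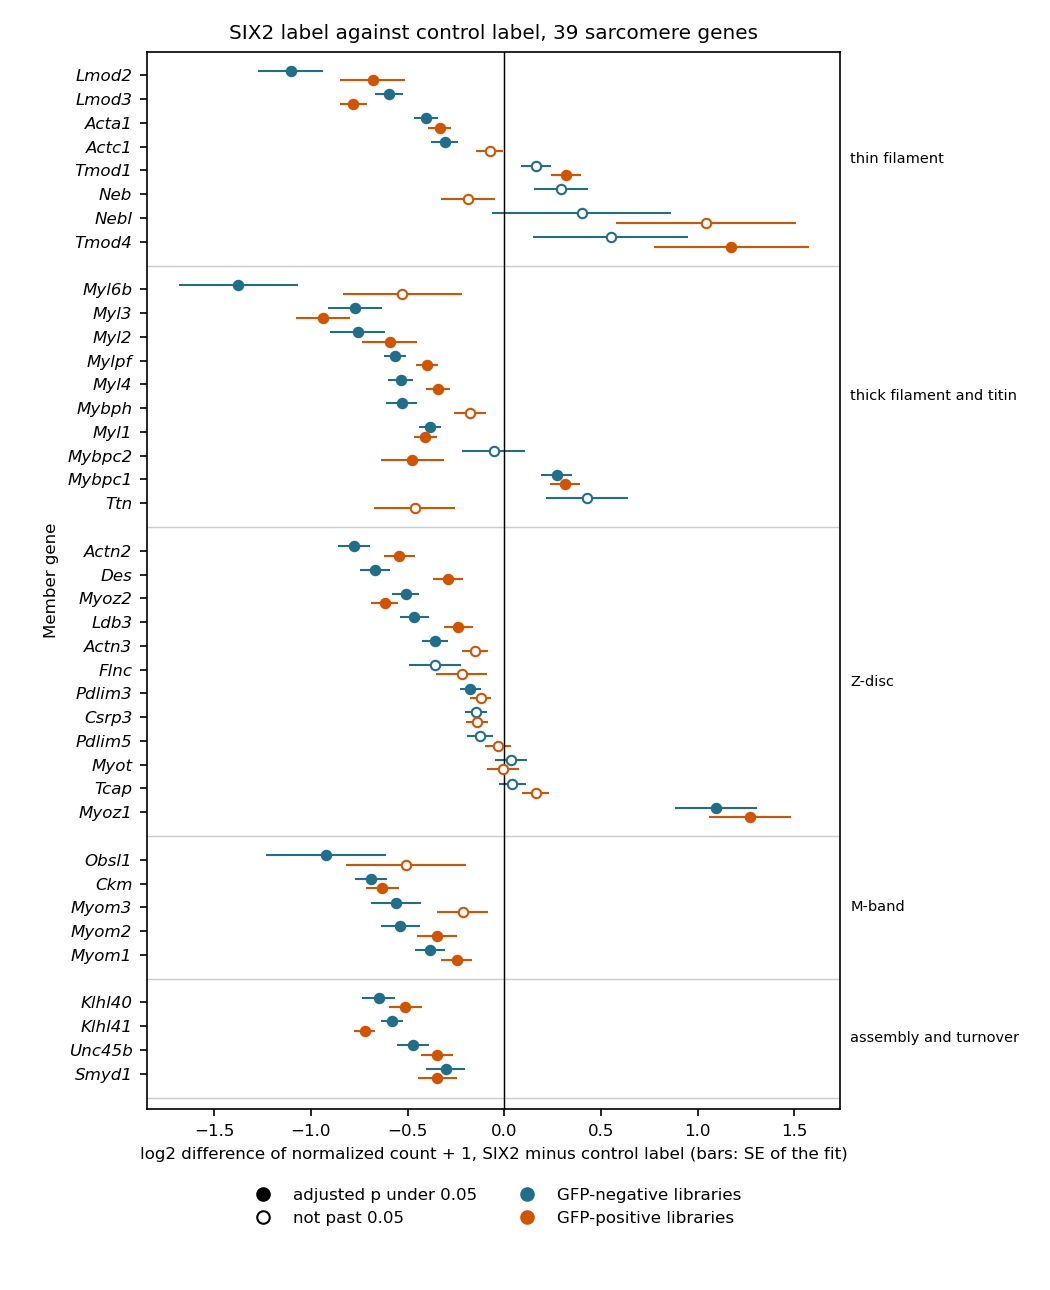
The log2 difference between SIX2-labelled and control-labelled libraries (x axis, log2 of normalized count + 1) is drawn for each of the 39 members, grouped by role, in GFP-negative (blue) and GFP-positive (orange) libraries. Bars are the standard error of the fit and filled points have an adjusted p under 0.05. All M-band and all assembly genes lie to the left of 0 in both, while Myoz1 and Mybpc1 lie to the right.

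The start regions of these genes are shown here because the members moved together. A RefSeq table of build GRCm38.p6 held promoters for 32 of the 39 members (40 promoters, each from 250 bases before to 50 bases after a transcript start). Actn3, Lmod3, Myom2, Myot, Myoz1, Neb and Tcap had no entry. Both strands were searched for CANNTG, the E-box bound by MyoD-family factors, for its form CAGCTG, for TCAGGTT, the core of the MEF3 site, and for the MEF2 site and the CArG box of serum response factor. The E-box CANNTG was in 77.5% of member promoters and in 72.3% of the 32851 promoters of the table. Its form CAGCTG was in 37.5% of member promoters and 16.3% of all, and the CArG box in 17.5% and 1.63%. The MEF2 site was in 10.0% and 3.19%, and TCAGGTT in 7.5% and 4.07%. Shares are of promoters, so genes with several starts count more than once. The overlapping promoters of Ldb3 hold the same CArG box, which was counted for each.

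CAGCTG was in 14 of the 26 promoters of members that fell in at least 1 population (53.8%), in 1 of 3 promoters of members that rose and in 0 of 11 promoters of members that passed in neither. These promoters belong to 24, 3 and 5 genes, so the last group is mostly alternative starts of a few genes. TCAGGTT was in 1 promoter of a member that fell (Actn2), 1 of a member that rose (Mybpc1, at 32 bases past the start and so outside the stretch printed) and 1 of a member that passed in neither (Pdlim5). A match is a description of letters and not a bound site. The bases before the start are printed for 4 members that fell and for Mybpc1, which rose, with the matches to the CAGCTG form of the E-box, the MEF3 core, the MEF2 site or the CArG box in capitals. Position -1 is the last base before the start.
Acta1, chr8:123894776-123895025, minus strand, CAGCTG at -221 and a CArG box at -73: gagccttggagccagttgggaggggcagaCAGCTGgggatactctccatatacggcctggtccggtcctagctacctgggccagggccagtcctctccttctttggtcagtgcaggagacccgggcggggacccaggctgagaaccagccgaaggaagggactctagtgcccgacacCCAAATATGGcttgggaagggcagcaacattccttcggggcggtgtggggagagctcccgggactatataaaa
Klhl41, chr2:69669870-69670119, plus strand, CAGCTG at -127 and a MEF2 site at -63: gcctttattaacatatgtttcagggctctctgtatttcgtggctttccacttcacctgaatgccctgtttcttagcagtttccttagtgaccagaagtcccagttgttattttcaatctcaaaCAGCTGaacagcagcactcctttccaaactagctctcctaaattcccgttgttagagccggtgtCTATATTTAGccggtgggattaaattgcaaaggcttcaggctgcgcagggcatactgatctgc
Myoz2, chr3:123034988-123035237, minus strand, CAGCTG at -12 and a MEF2 site at -33: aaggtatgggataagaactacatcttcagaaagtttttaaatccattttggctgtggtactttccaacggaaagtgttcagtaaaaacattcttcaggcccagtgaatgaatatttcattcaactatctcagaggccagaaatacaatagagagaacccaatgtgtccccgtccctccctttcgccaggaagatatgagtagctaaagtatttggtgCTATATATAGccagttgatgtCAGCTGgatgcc
Actn2, chr13:12340733-12340982, minus strand, TCAGGTT read on the opposite strand at -116: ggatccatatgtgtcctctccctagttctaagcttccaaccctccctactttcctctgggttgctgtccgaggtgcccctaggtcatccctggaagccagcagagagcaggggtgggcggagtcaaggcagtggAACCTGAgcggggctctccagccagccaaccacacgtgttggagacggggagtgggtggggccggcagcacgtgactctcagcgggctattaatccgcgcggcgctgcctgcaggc
Mybpc1, chr10:88605153-88605402, minus strand, CAGCTG at -87: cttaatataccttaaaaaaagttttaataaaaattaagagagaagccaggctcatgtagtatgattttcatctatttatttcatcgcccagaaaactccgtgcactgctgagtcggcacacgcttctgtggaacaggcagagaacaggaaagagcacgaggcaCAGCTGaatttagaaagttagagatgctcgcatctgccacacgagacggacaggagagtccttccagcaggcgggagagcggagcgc

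Among GFP-negative libraries 4 of 8 thin filament genes fell and none rose, and among GFP-positive libraries 3 fell and 2 rose. Skeletal α-actin and the leiomodins, which nucleate and lengthen actin filaments, fell in both populations, Actc1 fell in GFP-negative cells, and the tropomodulins, which cap the filament's pointed end, rose in GFP-positive cells.

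Acta1 (ENSMUSG00000031972.5, chr8:123891769-123894751) encodes skeletal α-actin and was the most abundant member, ranking 2 among all genes per kb of transcript. In GFP-negative cells it had 587040, 594640 and 647100 normalized counts with the control label and 459720, 476430 and 444160 with the SIX2 label. In GFP-positive cells they were 636520, 622290 and 646220 with the control label and 480690, 490030 and 541690 with the SIX2 label. The plasmid labels did not overlap in either population. The difference was -0.41 ± 0.06 (log2, SE; limma adjusted p = 0.000324) in GFP-negative and -0.33 ± 0.06 (adjusted p = 0.00157) in GFP-positive cells, and the mean fell by 24.5% in the first and fell by 20.6% in the second. Quantile normalization gives the gene at each rank the same value in every library, so it sets this difference at 0.00 for Acta1 by construction. The same scaling also ended the calls of Actc1, Actn3, Myl1, Obsl1, Pdlim3 and Smyd1 in GFP-negative cells and of Des, Ldb3, Myl1, Myl4, Mylpf, Myom1, Smyd1 and Tmod4 in GFP-positive cells.

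Actc1, the cardiac α-actin that is also made in developing skeletal muscle, fell from a mean of 122690 ± 11621 to 99040 ± 6739 (SD, n = 3) in GFP-negative cells (log2 difference -0.31 ± 0.07, limma adjusted p = 0.00516). In GFP-positive cells the means were 116150 ± 4540 and 110190 ± 2259 and the test did not pass (adjusted p = 0.487). The share of Actc1 in the sum of both sarcomeric actins per kb was 15.8% to 17.0% and 17.0% to 17.9% in the GFP-negative control and SIX2-labelled libraries. It was 14.6% to 15.9% and 16.9% to 18.4% in the GFP-positive ones, where the labels did not overlap.

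Lmod2 and Lmod3 are leiomodins. Lmod2 had 3361, 3932 and 3353 normalized counts in GFP-negative control and 1983, 1608 and 1393 in GFP-negative SIX2-labelled libraries, and 3996, 2496 and 4238 against 2188, 2190 and 2136 in the GFP-positive ones. One GFP-positive control library was near the SIX2-labelled level, but the labels did not overlap. Its difference of -1.11 ± 0.17 in GFP-negative cells (limma adjusted p = 0.000332) was the largest among thin filament genes that fell, and it was -0.68 ± 0.17 in GFP-positive cells (adjusted p = 0.0100).

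Lmod3 had 11451, 12832 and 12913 in GFP-negative control and 7884, 8077 and 8652 in GFP-negative SIX2-labelled libraries. The GFP-positive libraries had 17231, 15475 and 15349 with the control label and 9455, 9907 and 8620 with the SIX2 label. The GFP-positive control libraries stood above all others and the plasmid labels did not overlap. The differences were -0.59 ± 0.07 and -0.78 ± 0.07 (limma adjusted p = 6.41e-05 and 9.58e-06).

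Tmod1 and Tmod4 are tropomodulins and went the other way. Tmod1 had 1101, 1054 and 1254 in GFP-negative control, 1307, 1267 and 1239 in GFP-negative SIX2-labelled, 1243, 1176 and 1180 in GFP-positive control and 1535, 1444 and 1519 in GFP-positive SIX2-labelled libraries. The GFP-negative libraries overlapped and the GFP-positive ones did not. The difference was 0.32 ± 0.08 in GFP-positive cells (limma adjusted p = 0.00912) and 0.16 ± 0.08 (adjusted p = 0.135) in GFP-negative cells.

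Tmod4, the muscle tropomodulin, was near the lower limit of the data, with 27 to 121 reads per library. Its GFP-positive values were 20.7, 47.6 and 53.2 with the control label and 60.7, 101 and 103 with the SIX2 label, with no overlap (log2 difference 1.17 ± 0.40, limma adjusted p = 0.0485). Its GFP-negative values of 66.4, 34.9 and 32.8 against 43.6, 77.1 and 72.8 overlapped. The GFP-positive call was lost in 15 of 26 alternative analyses, among them 8 that left out 1 library, with adjusted p up to 0.196 (without GFP-positive control replicate 1). Nebl, the small nebulin-like protein nebulette, had only 34 to 234 reads and did not pass in either population.

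**Figure D2:**
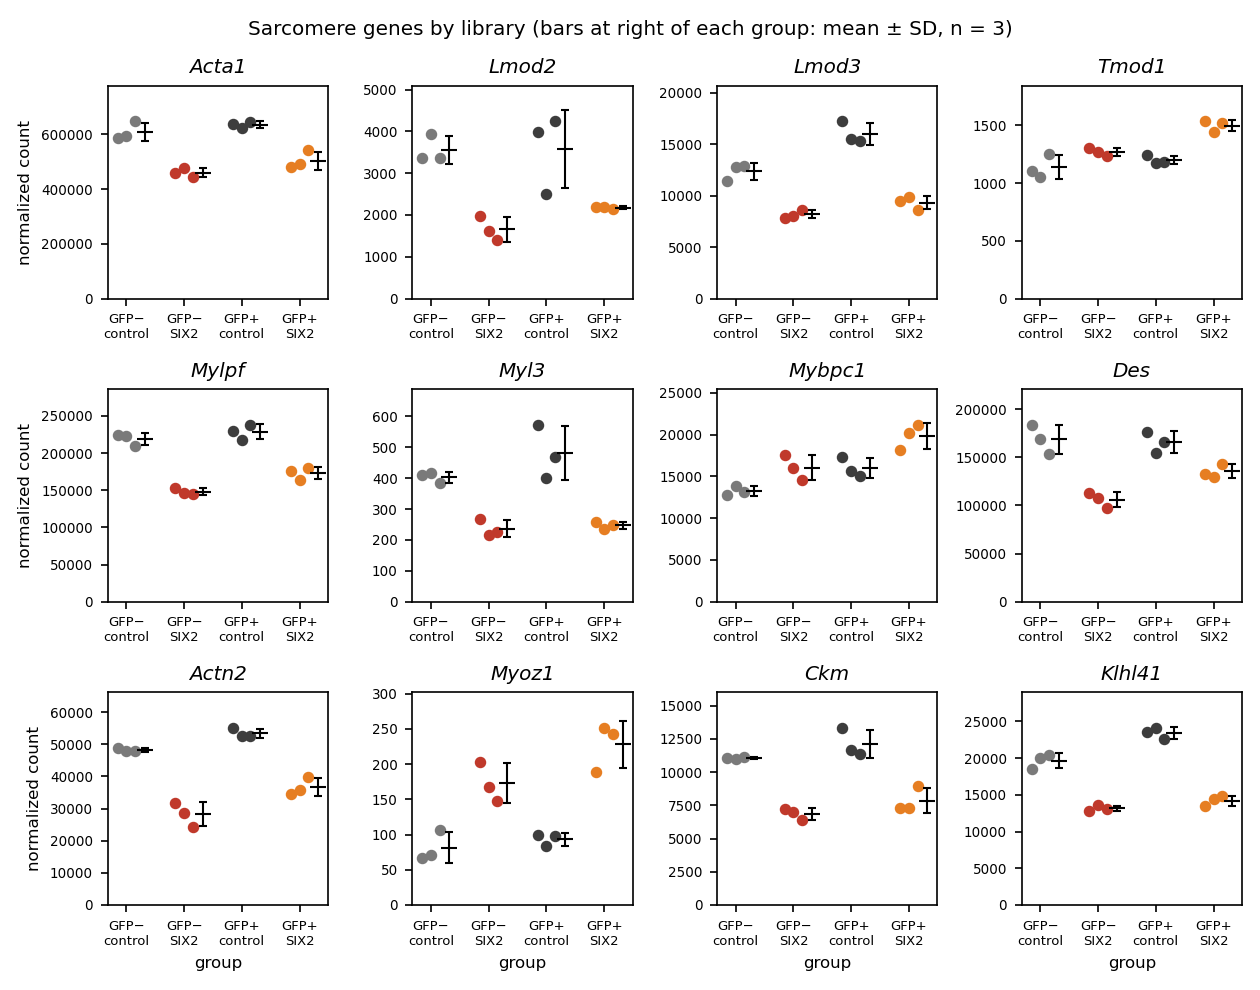
Normalized counts (y axis, from 0) of 12 members are shown for each of the 12 libraries by group (x axis), with the mean ± SD of each group to the right of its points. Acta1, Lmod2, Lmod3, Mylpf, Myl3, Des, Actn2, Ckm and Klhl41 are lower in all 6 SIX2-labelled libraries than in all 6 control-labelled ones, and Myoz1 is higher.

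Of the 10 thick filament genes, 7 fell and 1 rose in GFP-negative libraries and 6 fell and 1 rose in GFP-positive ones. The light chains, which clamp the lever arm of myosin, made up most of those that fell.

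Mylpf (chr7:127208890-127214298), the fast regulatory light chain, ranked 3 among all genes per kb. It had 224710, 222770 and 209500 normalized counts in GFP-negative control and 153240, 145600 and 145010 in GFP-negative SIX2-labelled libraries. The GFP-positive values were 229950, 218000 and 238130 with the control label and 175900, 163920 and 180080 with the SIX2 label. The plasmid labels did not overlap in either population. The differences were -0.57 ± 0.06 and -0.40 ± 0.06 (limma adjusted p = 1.53e-05 and 0.000232).

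Myl1, the fast essential light chain, and Myl4, the embryonic and atrial essential light chain, also fell in both. Myl1 went from a mean of 233760 ± 11182 to 178790 ± 4272 in GFP-negative and from 272450 ± 17569 to 205040 ± 2487 in GFP-positive cells (log2 difference -0.39 and -0.41). Under quantile normalization the GFP-negative difference of Myl1 turned to 0.046, with a limma adjusted p of 0.757. Reads of Myl1 may also be shared, since 23.4% of its 50-base stretches occur in the pseudogene Mylf-ps. Myl4 differed by -0.54 and -0.34 (limma adjusted p = 5.70e-05 and 0.00167).

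The slow light chains were rare here but fell most steeply. Myl3, the slow and ventricular essential light chain, had 409, 415 and 383 normalized counts against 267, 215 and 226 in GFP-negative libraries, and 573, 399 and 468 against 257, 236 and 249 in the GFP-positive ones, control label first. The labels did not overlap, and the differences were -0.77 ± 0.14 and -0.94 ± 0.14 (limma adjusted p = 0.00115 and 0.000355). Myl2, the slow and ventricular regulatory light chain, had 302, 274 and 258 against 174, 152 and 166, and 283, 232 and 247 against 150, 185 and 169. It too was lower without overlap in both, with differences of -0.76 ± 0.14 and -0.59 ± 0.14 (adjusted p = 0.00136 and 0.00806).

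Myl6b, a slow-muscle essential light chain, had 362, 516 and 396 in GFP-negative control and 223, 144 and 129 in GFP-negative SIX2-labelled libraries, a difference of -1.38 ± 0.31 (limma adjusted p = 0.00467) and the largest of any member. In GFP-positive cells its control libraries ran from 197 to 534 and overlapped the SIX2-labelled values of 252, 275 and 187 (adjusted p = 0.248).

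The myosin-binding proteins did not move together. Mybpc1, the slow myosin-binding protein C, had 12745, 13881 and 13175 against 17513, 16054 and 14572 in GFP-negative libraries, and 17321, 15607 and 15038 against 18198, 20213 and 21204 in the GFP-positive ones. It was higher with the SIX2 label in both, without overlap, by 0.27 ± 0.08 and 0.31 ± 0.08 (limma adjusted p = 0.0206 and 0.0112). The GFP-negative call of Mybpc1 was lost on leaving out either of GFP-negative control replicates 1 and 3 (adjusted p = 0.0748 and 0.0560) or either of GFP-negative SIX2 replicates 1 and 2 (adjusted p = 0.0876 and 0.0585).

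Mybpc2, the fast myosin-binding protein C, was low, with 336, 282 and 406 against 230, 218 and 283 in GFP-positive libraries. These overlapped, and its adjusted p of 0.0480 (limma, log2 difference -0.48 ± 0.16) was the least stable call, lost in 16 of 26 alternative analyses. Mybph, myosin-binding protein H, had means of 55617 ± 3752 and 38597 ± 3996 in GFP-negative cells (-0.53 ± 0.08, adjusted p = 0.000355) and 52296 ± 2535 and 46271 ± 3668 in GFP-positive cells, where the test did not pass (adjusted p = 0.135).

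Z-disc genes held both the strongest rise and several genes that did not pass in either population. With GFP-negative cells 6 of 12 fell and 1 rose, and with GFP-positive cells 4 fell and 1 rose. Those that fell in both were the α-actinin Actn2, the intermediate filament protein Des, Ldb3 and Myoz2.

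Des encodes desmin, the muscle intermediate filament protein that links Z-discs. It had 183830, 168540 and 152870 normalized counts in GFP-negative control and 113010, 107460 and 97424 in GFP-negative SIX2-labelled libraries. The GFP-positive values were 176690, 154360 and 166280 with the control label and 132880, 129820 and 143460 with the SIX2 label. The labels did not overlap. The differences were -0.67 ± 0.08 and -0.29 ± 0.08 (limma adjusted p = 5.55e-05 and 0.0159). The GFP-positive call was lost without GFP-positive control replicate 1 or GFP-positive SIX2 replicate 2 (adjusted p = 0.0671 and 0.0614).

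Actn2 (chr13:12269426-12340760) and Actn3 encode the sarcomeric α-actinins, which crosslink actin at the Z-disc. Actn2 had 48868, 47978 and 47958 in GFP-negative control, 31756, 28775 and 24411 in GFP-negative SIX2-labelled, 55116, 52574 and 52660 in GFP-positive control and 34424, 35866 and 39975 in GFP-positive SIX2-labelled libraries. Every SIX2-labelled library was below every control one. The differences were -0.78 ± 0.08 and -0.54 ± 0.08 (limma adjusted p = 2.40e-05 and 0.000380).

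Actn3, the fast-fibre form, had a difference of -0.36 ± 0.07 in GFP-negative cells (limma adjusted p = 0.00129), and did not pass in GFP-positive cells (adjusted p = 0.122). The share of Actn3 in both α-actinins per kb was 53.5% to 55.5% with the control and 60.1% to 63.5% with the SIX2 label in GFP-negative libraries, and 51.5% to 54.9% against 59.0% to 61.3% in GFP-positive ones. The shares did not overlap. This pair, and the actin pair above, were chosen after their values were seen.

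Myoz1 and Myoz2 encode calsarcins, which bind calcineurin and α-actinin at the Z-disc, and they moved apart. Myoz1, the fast-fibre form, was rare, with 31 to 285 reads per library. It had 66.4, 71.4 and 107 normalized counts against 203, 167 and 148 in GFP-negative libraries, and 99.4, 83.0 and 97.9 against 189, 251 and 243 in the GFP-positive ones, control label first. No control library reached the lowest SIX2-labelled one. The mean rose by 112% and 144%, a log2 difference of 1.09 ± 0.21 and 1.27 ± 0.21 (limma adjusted p = 0.00182 and 0.000796), and both calls stood in all 26 alternative analyses.

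Myoz2, the slow-fibre and cardiac form, was the abundant one and fell from 4671 ± 431 to 3272 ± 102 in GFP-negative and from 5023 ± 241 to 3270 ± 70.7 (SD, n = 3) in GFP-positive cells. The differences were -0.51 ± 0.07 and -0.62 ± 0.07 (limma adjusted p = 0.000160 and 4.24e-05). Per kb, Myoz1 made up 1.37% to 1.89% of the pair in GFP-negative control libraries and 3.89% to 5.58% in the SIX2-labelled ones. In GFP-positive libraries the shares were 1.51% to 1.83% and 5.16% to 6.51%.

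Ldb3, a PDZ-LIM protein that binds α-actinin, fell, with log2 differences of -0.47 ± 0.08 and -0.24 ± 0.08 (limma adjusted p = 0.000482 and 0.0341), but the second call was lost in 9 of 26 alternatives. Pdlim3, another PDZ-LIM protein, passed in GFP-negative cells by a small margin (-0.18 ± 0.05, adjusted p = 0.0259), which 8 alternatives removed. The mechanosensor Csrp3, the titin cap Tcap, Myot, Pdlim5 and the filamin Flnc passed in neither population. For Tcap the means were 10549 ± 501 and 10852 ± 517 in GFP-negative and 11195 ± 742 and 12532 ± 976 in GFP-positive cells. For Flnc they were 15662 ± 520 and 12375 ± 2539, and 17332 ± 429 and 15045 ± 2903.

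All 5 M-band genes fell in GFP-negative cells and 3 of 5 fell in GFP-positive cells, with the other 2 at lower means but not past the test. Ckm encodes the muscle creatine kinase, an enzyme that regenerates ATP and in part docks at the M-band. It had 11042, 11023 and 11122 normalized counts against 7217, 6985 and 6386 in GFP-negative libraries, and 13333, 11698 and 11349 against 7324, 7307 and 8919 in the GFP-positive ones, without overlap. Its differences were -0.69 ± 0.08 and -0.63 ± 0.08 (limma adjusted p = 6.38e-05 and 0.000147).

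The myomesins Myom1, Myom2 and Myom3 crosslink thick filaments at the M-band. Myom1 and Myom2 fell in both (-0.38 and -0.54 in GFP-negative, -0.25 and -0.35 in GFP-positive cells). Leaving out GFP-positive SIX2 replicate 1 or 2 ended the GFP-positive call for both genes, with limma adjusted p of 0.0685 to 0.116. Myom3 had 14197, 12406 and 11459 against 10249, 8596 and 7169 in GFP-negative libraries (-0.56 ± 0.13, adjusted p = 0.00589). Its GFP-positive values of 13697, 12499 and 13007 against 10252, 10185 and 13610 overlapped through a single SIX2-labelled library (adjusted p = 0.263).

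Obsl1, an obscurin-like protein that ties titin to myomesin, had 7067, 5822 and 7162 against 3989, 3843 and 2829 in GFP-negative libraries, which did not overlap (-0.92 ± 0.31, limma adjusted p = 0.0407). In GFP-positive libraries it spread from 3184 to 7142 with the control label and from 2276 to 5507 with the SIX2 label. Its transcript has a GC content of 62.5%, and with a trend on GC content removed the GFP-negative difference was -0.71 (adjusted p = 0.0888). Leaving out any 1 of the 6 GFP-negative libraries also ended the call, with adjusted p of 0.0566 to 0.143.

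All 4 genes for folding and turnover of the sarcomere fell in both populations. Klhl41 (chr2:69670120-69684230) encodes a kelch protein that stabilises nebulin and was the most abundant of them. It had 18590, 20036 and 20406 normalized counts in GFP-negative control and 12816, 13555 and 13080 in GFP-negative SIX2-labelled libraries. The GFP-positive values were 23559, 24125 and 22563 with the control label and 13430, 14369 and 14796 with the SIX2 label. The plasmid labels did not overlap, and the GFP-positive control libraries were the highest of all. The differences were -0.58 ± 0.06 and -0.72 ± 0.06 (limma adjusted p = 1.26e-05 and 2.98e-06).

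Klhl40, a kelch protein that protects Lmod3 and nebulin from breakdown, had 4982, 5052 and 5392 against 3384, 3327 and 3117, and 5706, 5386 and 5241 against 3469, 3574 and 4470. It was lower without overlap in both, with differences of -0.65 ± 0.09 and -0.51 ± 0.09 (limma adjusted p = 0.000119 and 0.000815). Unc45b, the myosin chaperone, had 9061, 8863 and 9660 against 7316, 6879 and 5782, and 9908, 10059 and 9676 against 7342, 7444 and 8573, and fell, with log2 differences of -0.47 ± 0.08 and -0.35 ± 0.08 (adjusted p = 0.00102 and 0.00884). Smyd1, a methyltransferase that works with Unc45b on myosin, fell, with log2 differences of -0.30 ± 0.10 and -0.35 ± 0.10 (adjusted p = 0.0398 and 0.0245). Its GFP-negative call was lost in 9 of 26 alternatives, and GFP-negative control replicate 3, at 7860 against 6075 and 5819, was the highest of its group (adjusted p = 0.166 without it).

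Titin and nebulin, the giant proteins that measure out the thick and thin filaments, differed from most members in GFP-negative cells. Their means there were higher with the SIX2 label, while in GFP-positive cells they were lower. Ttn had 81741, 77507 and 72077 normalized counts in GFP-negative control and 120710, 98675 and 93229 in GFP-negative SIX2-labelled libraries. In GFP-positive cells it had 156350, 119380 and 105320 with the control label and 63109, 87768 and 135230 with the SIX2 label. The GFP-positive SIX2-labelled libraries spread 2.14-fold and overlapped the control ones. The differences of 0.43 ± 0.21 and -0.46 ± 0.21 did not pass (limma adjusted p = 0.152 and 0.135). Neb had means of 37328 ± 1144 and 45897 ± 4240 in GFP-negative and 50111 ± 5269 and 44806 ± 11677 in GFP-positive cells, and did not pass either (adjusted p = 0.133 and 0.369). Quantile normalization gave GFP-negative differences of 0.64 for Ttn and 0.53 for Neb, which passed (limma adjusted p = 0.0222 and 0.0217).

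Their transcripts are the longest of the list, at 106824 bases for Ttn and 22489 for Neb, and their libraries ranked broadly as long transcripts did in general. An exception was GFP-positive control replicate 1, where Ttn deviated by 0.68 and long transcripts by a median of 0.05. The 329 tested genes with transcripts of at least 10000 bases, Ttn and Neb among them, had a median deviation from the 12-library mean of -0.08, -0.09 and -0.10 (log2) in GFP-negative control and 0.17, 0.11 and 0.06 in GFP-negative SIX2-labelled libraries. In GFP-positive cells it was 0.05, 0.08 and -0.03 with the control label and -0.18, -0.01 and 0.17 with the SIX2 label. Ttn deviated by -0.63, -0.15 and 0.47 in those last 3 libraries and Neb by -0.35, -0.06 and 0.39. With a trend on transcript length removed, an alternative chosen after seeing the data, the GFP-negative difference of Ttn turned to -0.18 (limma adjusted p = 0.129) and that of Neb to -0.014, while that of Ttn in GFP-positive cells was -0.36 and passed (adjusted p = 0.00845). Without GFP-positive SIX2 replicate 3, the GFP-positive differences were -0.75 for Ttn and -0.38 for Neb (adjusted p = 0.00536 and 0.0162).

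**Figure D3:**
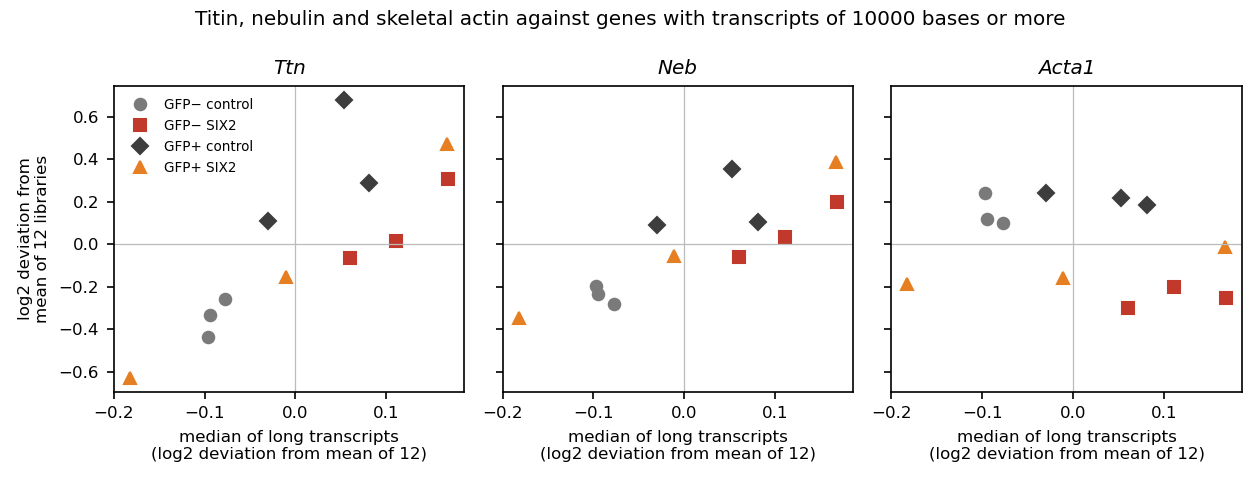
Each point is 1 of the 12 libraries, drawn by its deviation in Ttn, Neb or Acta1 (y axis, log2 from the mean of 12 libraries) and by the median deviation of 329 genes with transcripts of at least 10000 bases (x axis). Ttn and Neb libraries tend to rise from lower left to upper right, with the GFP-positive SIX2-labelled libraries spread along that direction, and Acta1 libraries do not. The highest Ttn library is GFP-positive control replicate 1 (0.68), at a long-transcript median of 0.05.

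Many sarcomere proteins have a relative that serves the cytoskeleton of other cells, and the make-up of these families differed between the plasmid labels. Per kb of transcript, Acta1 and Actc1 made up 86.4%, 88.3% and 89.7% of 6 actins in GFP-negative control and 81.6%, 81.7% and 80.9% in GFP-negative SIX2-labelled libraries. The GFP-positive shares were 89.9%, 89.6% and 90.8% with the control label and 79.8%, 82.5% and 83.8% with the SIX2 label. All SIX2-labelled libraries were below all control ones. The mean summed level per kb of the sarcomeric actins went from 504900 to 385400 and from 518000 to 423400, and the other 4 actins (Actb, Actg1, Acta2 and Actg2) from 67690 to 87970 and from 57090 to 92560.

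The α-actinins and the regulatory light chains ran the same way, and the other families did not. Actn2 and Actn3 were 94.0% ± 0.41 and 91.2% ± 0.22 (SD, n = 3) of 4 α-actinins in GFP-negative and 95.0% ± 0.26 and 92.4% ± 0.86 in GFP-positive cells. The member filamin Flnc passed in neither population, while Flna, the filamin of most other cells, rose in both, with log2 differences of 0.96 and 1.27 (limma adjusted p = 0.000280 and 4.13e-05).

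Mylpf and Myl2 were 93.0% ± 0.46 and 89.2% ± 0.76, and 92.7% ± 0.36 and 90.4% ± 0.45, of the regulatory light chains counted. None of these 3 families overlapped between the plasmid labels, and the tropomodulins did. The muscle LIM protein Csrp3 was 90.2% ± 0.67 and 89.7% ± 2.08 of 3 CSRP proteins in GFP-negative and 95.9% ± 1.29 and 92.2% ± 3.50 in GFP-positive cells, and these overlapped, as did the leiomodins, at above 99% in all libraries. Creatine kinase went the other way, since the brain form Ckb fell, with log2 differences of -1.02 and -0.91, and Ckm made up 35.8% ± 0.48 and 41.2% ± 0.35 of the pair in GFP-negative and 36.2% ± 0.77 and 40.9% ± 1.97 in GFP-positive cells, control label first. These shares are descriptions of families picked after the member values were seen.

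**Figure D4:**
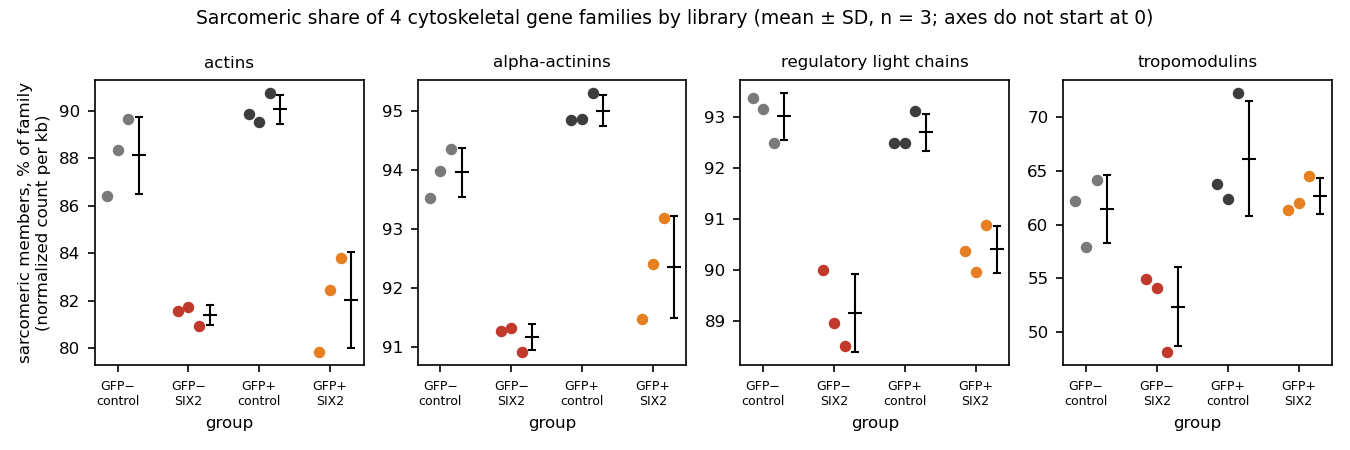
The share of sarcomeric members in each of 4 families (y axis, percent of the family's normalized counts per kb, axes not from 0) is drawn by library and group (x axis), with mean ± SD beside the points. Actins, α-actinins and regulatory light chains are lower in all SIX2-labelled libraries, and tropomodulins overlap.

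In a list of 30 non-sarcomeric actin cytoskeleton genes, 13 rose and 6 fell with the SIX2 label in GFP-negative cells, and 12 rose and 3 fell in GFP-positive cells. The genes with the smallest p included Tagln, the calponin-like protein transgelin (0.86 and 1.09), Myl9, a smooth and non-muscle regulatory light chain (1.14 and 1.33), and Ckb. Actb, β-actin, rose from 54433 ± 10077 to 92426 ± 1675 and from 45687 ± 4917 to 95306 ± 12167 (log2 difference 0.78 and 1.06). Actb and Flna were named after their values were seen.

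The parts of the sarcomere outside the member list moved as the members did. Of 16 heavy chain, troponin and tropomyosin genes, 11 fell and 1 rose in GFP-negative cells and 12 fell and 1 rose in GFP-positive cells. The single gene that rose was Tpm3, a tropomyosin with slow-muscle and non-muscle forms, with a log2 difference of 1.04 in both. The genes with the next smallest p included Tnnt1 and Tnnc1, the slow troponin T and the slow troponin C. Their log2 differences were -0.69 and -0.59 in GFP-negative cells and -0.67 and -0.58 in GFP-positive ones. Tnnt3, the fast troponin T, had -0.40 and -0.55.

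Among 23 tested regulators of sarcomere genes, 7 fell and 5 rose in GFP-negative cells and 8 fell and 3 rose in GFP-positive cells. Pax3 fell, with log2 differences of -2.06 and -2.82, and Myf5, an early regulator of the myoblast, rose, with 1.32 and 0.77. The Pax3 level was low, at 13.8 to 19.3 normalized counts in GFP-negative and 3.90 to 14.65 in GFP-positive SIX2-labelled libraries. Myog fell by a smaller step than the median member, with -0.24 and -0.19, and so did the MEF2 factor Mef2c, with -0.20 and -0.27. The MEF2 factors Mef2d and Mef2a fell further in GFP-negative cells, with -0.94 and -0.41 (limma adjusted p = 0.00785 and 0.0248). In GFP-positive cells the plasmid labels overlapped for both. The means there were 3648.5 and 3048 for Mef2d and 12189 and 10669 for Mef2a, control label first. Hdac5, a deacetylase that represses MEF2 targets, fell in both (-0.52 and -0.28). Id3, an inhibitor of MyoD-family dimers, rose in both (0.40 and 0.24). Id2, a second such inhibitor, rose in GFP-negative cells (0.64) and differed by 0.04 in GFP-positive cells (limma adjusted p = 0.806). Id1, of the same family, fell in GFP-positive cells (-0.35, adjusted p = 0.00615) and differed by 0.13 in GFP-negative ones (adjusted p = 0.263). Myod1 did not pass in either (adjusted p = 0.0892 and 0.188).

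Markers of connective tissue cells also moved with the plasmid label. The summed level of 8 measured fibro-adipogenic and fibroblast markers was 4926 to 6623 in GFP-negative control, 7684 to 8381 in GFP-negative SIX2-labelled, 4123 to 5383 in GFP-positive control and 7498 to 8228 in GFP-positive SIX2-labelled libraries. Of the 7 tested, 4 rose in each population (Col1a1, Col3a1, Col6a3 and Ly6a). Dcn was at 0 in 11 of 12 libraries and Pdgfra at 0 to 27.0 normalized counts. Smooth muscle and pericyte markers summed to 53350 to 59290 in GFP-negative control, 48580 to 51420 in GFP-negative SIX2-labelled, 53530 to 56540 in GFP-positive control and 51750 to 56570 in GFP-positive SIX2-labelled libraries. Acta2, also counted among the actins above, made up most of these sums at 47000 to 57660, while Myh11 held 0 to 8.93. Of the 4 tested, Acta2 (-0.16) and Cspg4 (-0.78) fell and Rgs5 (1.69) rose in GFP-negative cells, and Cspg4 (-0.84) fell and Pdgfrb (0.87) rose in the GFP-positive ones. Tenocyte markers summed to 525 to 593, 417 to 471, 471 to 704 and 432 to 562 in the same order, and of 3 tested Scx fell in both (-0.51 and -0.60) and Mkx rose in GFP-negative cells (1.61). Endothelial markers summed to 26.0 to 96.5 and immune markers to 20.6 to 58.0 over all libraries. Schwann markers summed to 10.00 to 25.7 and cardiomyocyte markers to 17.9 to 70.0, and none of those tested passed between plasmid labels. Endothelial sums were 28.1 to 57.8 and 33.7 to 87.6 in GFP-negative libraries, control label first. In GFP-positive libraries they were 26.0 to 46.4 and 60.2 to 96.5, without overlap. There 1 endothelial marker rose (Egfl7, 1.67), and 1 immune marker rose in each population. The 10 myogenic markers, a list that includes Des, summed to 432700 to 441400 and 316000 to 355000 in GFP-negative libraries. In GFP-positive ones they summed to 423600 to 442400 and 379800 to 414500. Of the 10, 5 fell and 4 rose in GFP-negative cells, and 2 fell and 4 rose in GFP-positive cells. Pax7 had means of 111 and 162, and 98.0 and 170. Vcam1 had 419 and 1114, and 330 and 1022, and Sdc4 2140 and 3609, and 1868 and 3509. The part of these markers in the sarcomere differences was not tested.

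The second comparison asks whether the sorted PAX3 status itself went with a different level. Among control-labelled libraries 29 of 39 members had a higher value in GFP-positive cells, with a median difference of 0.09 against -0.00 over all tested genes, but only 2 passed. These rose in GFP-positive cells, as 0.919% of tested genes did, and none fell, against 2.56%. They were Lmod3 (0.37 ± 0.07, limma adjusted p = 0.0171) and Klhl41 (0.25 ± 0.06, adjusted p = 0.0294), whose values are given above. The calls rest on few libraries, since no member passed without GFP-negative control replicate 1 or without GFP-positive control replicate 1. In 12 members the GFP-positive control libraries were all above the GFP-negative ones, a share of 30.8% against 13.0% of tested genes, and in none were they all below, against 14.1%.

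The heavy chain, troponin and tropomyosin list had 7 of 16 genes higher in GFP-positive control cells, among them Tnnc2 (0.48) and Myh8, the perinatal heavy chain (0.43). Mef2c was the only regulator that passed, at 0.28.

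Among SIX2-labelled libraries 35 of 39 members had a higher value in GFP-positive cells, with a median of 0.21 against -0.02 over all tested genes. No member passed in limma, where 0.192% of tested genes did. At an unadjusted p under 0.05 there were 22, against 13.0% of tested genes, and DESeq2 on the recovered reads called 7, against 2.37% of the genes to which it gave an adjusted p (Actn2, Actn3, Des, Mybpc1, Myl4, Mylpf and Pdlim3, all higher). In 21 members, or 53.8%, the GFP-positive libraries were all above the GFP-negative ones, against 9.05% of tested genes. All 3 GFP-positive SIX2-labelled libraries were shallower than all 3 GFP-negative ones, at 12.6 to 15.5 against 34.0 to 40.2 in units of 1e6 reads, and the part of depth in this was not tested.

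**Figure D5:**
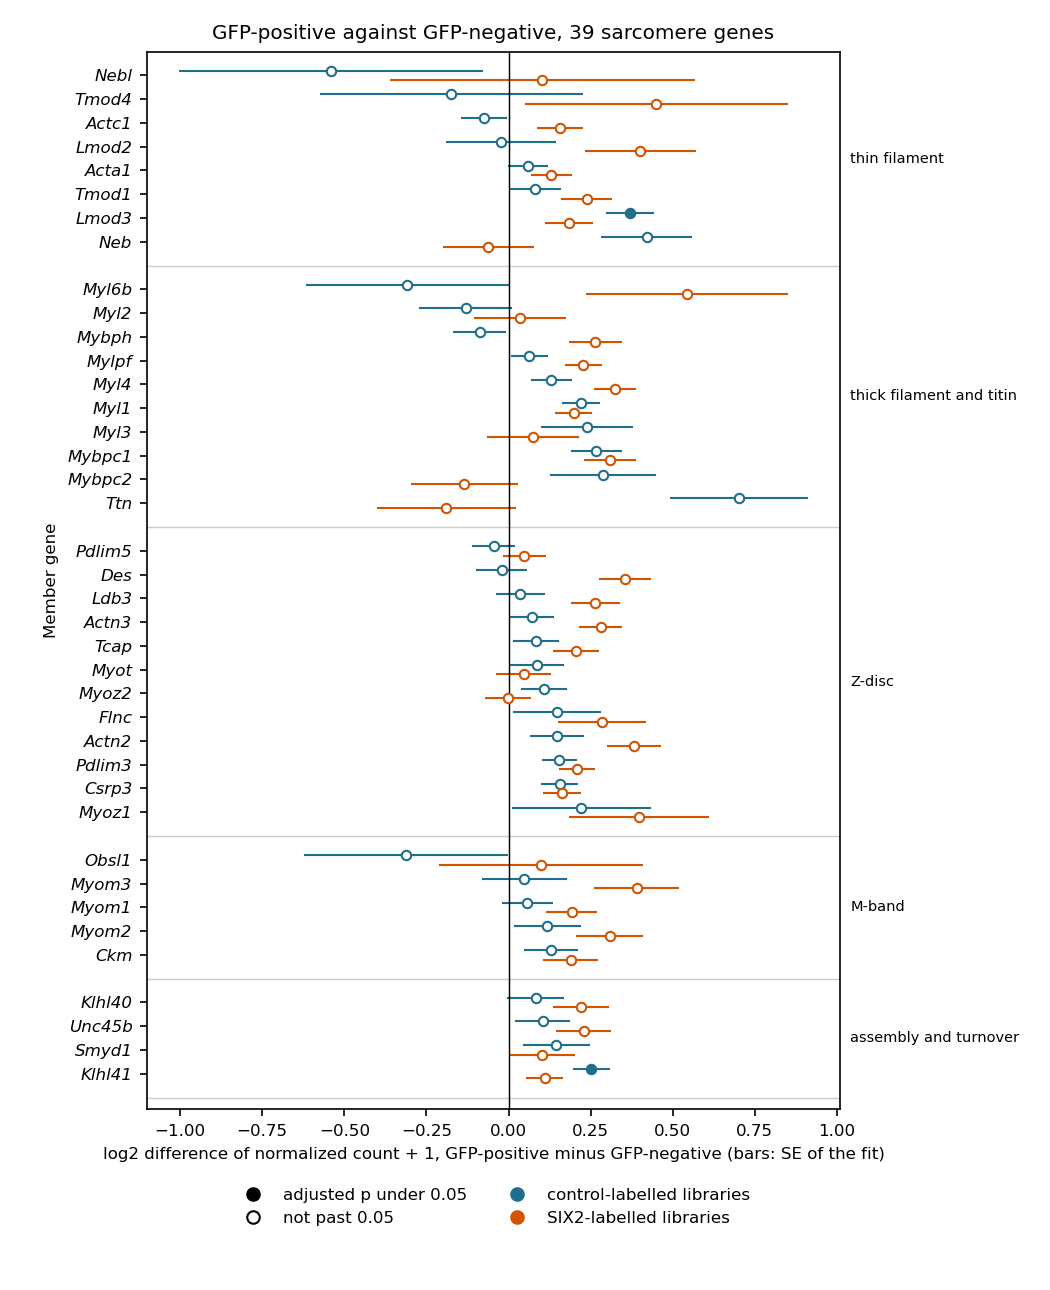
The log2 difference between GFP-positive and GFP-negative libraries (x axis, log2 of normalized count + 1) is drawn for each member in control-labelled (blue) and SIX2-labelled (orange) libraries, with the standard error of the fit. Most points lie to the right of 0, and only Lmod3 and Klhl41 are filled, for an adjusted p under 0.05.

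The third comparison tests whether the plasmid difference itself depended on the GFP label. None of the 39 members passed in limma, edgeR called none and DESeq2 called Des alone, against 5.44% of the genes to which it gave an adjusted p, and none of all tested genes passed in limma (0.0%). At an unadjusted p under 0.05 there were 8 members, or 20.5%, against 16.7% of tested genes, so their share is near that of all genes. The 5 with the smallest p were Des (0.38 ± 0.11, adjusted p = 0.134), Mybph (0.35 ± 0.12, adjusted p = 0.167), Ttn (-0.89 ± 0.30, adjusted p = 0.172), Neb (-0.48 ± 0.20, adjusted p = 0.238) and Actc1 (0.23 ± 0.10, adjusted p = 0.262). A positive value means that the drop was smaller in GFP-positive cells. Without GFP-positive SIX2 replicate 3, the library with the highest Ttn of its group, Ttn passed at -1.18 (adjusted p = 0.0463).

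Some members may share reads with neighbours, which was not measured. Strand is not marked in the stated library protocol, so reads cannot be told apart where exons overlap a gene on the opposite strand, as they do for Ckm, Des, Klhl40, Mybpc1, Mybpc2, Mybph, Myl2, Myl3, Myl4, Myom1, Neb, Tmod1, Ttn and Unc45b.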

How the data were processed

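Per the labels' protocols, cDNA came from SMART-Seq2, which copies whole transcripts, and was cut with Tn5 and amplified by PCR. STAR 2.7.11a, RSEM 1.3.3, FastQC 0.12.1, MultiQC 1.19 and DESeq2 1.42.0 appear in the submitters' processing notes, as does the mouse build GRCm38; their settings are not given in the sources used here. The deposited values are a signal per gene on a linear scale, namely the authors' normalized counts. Once divided by the smallest step of its library, 100% of values lay within 1e-04 of an integer. This gives back whole counts, which are called reads throughout. Whether they are rounded RSEM estimates is not given in the sources used here. Of the gene identifiers, 99.8% matched the GENCODE M21 annotation of GRCm38, which gave positions and transcript lengths.

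Groups came from the sample titles. The main test was the trend form of limma 3.58.1 under R 4.3.3, applied to log2(normalized count + 1), a scale that understates the change of low genes, with all 12 libraries in a fit of 4 group means, two-sided moderated tests and Benjamini-Hochberg adjustment at 0.05. A gene was tested if 3 or more libraries had 10 or more normalized counts, which kept 14580 genes and all 39 members. The scripts were tested on simulated data. Replicates of a group differed by more than sampling noise (chi-square per degree of freedom of 7.18 to 45.3), so each library counted once.

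Alternatives were pseudocounts of 0.5 and 5, no filter and a minimum of 50, TMM and quantile scaling, a fit of only the groups compared, library weights, a GC trend removed, a replicate block, edgeR 4.0.16 and DESeq2 1.42.0 on the recovered reads, and each library left out. Values were given by library for the most abundant member and up to 3 members with the largest called differences of each role, and for called members against the direction of their role. The members, roles and companion lists were chosen with earlier results of these data known.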

Additional observations from a re-analysis of the deposited data

How the results depend on the processing

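Of the 28 members called between plasmid labels in GFP-negative cells, 20 were called under every alternative, and 13 of 24 in GFP-positive cells. The counts ran from 23 to 33 and from 16 to 26, and from 25 to 32 and from 19 to 27 with 1 library left out. The only called difference that changed sign was that of Myl1 in GFP-negative cells, at 0.046 under quantile normalization, which fixes the value at each rank; the differences of Ttn and Neb there, not called, turned to -0.18 and -0.014 with the length trend removed. Between GFP labels among control libraries, 2 members were called in limma, 1 with no filter, 4 in a fit of only the groups compared, 8 with library weights, 5 in DESeq2 and 0 to 4 with 1 library left out. Among SIX2-labelled libraries 0 were called in limma, 7 in DESeq2, and 0 to 1 with 1 library left out. For the difference between the plasmid effects, these counts were 0, 1, and 0 to 1. The cause of these changes was not tested.

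Samples with the same replicate number did not deviate together (correlations from -0.20 to 0.05 over 18 pairs). With the replicate block, 27 and 20 members were called between plasmid labels, against 28 and 24 without it, and 2, 0 and 0 in the other comparisons. Depth limits Nebl, Tmod4 and Myoz1, whose lowest libraries held 34, 27 and 31 reads.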
